A study of Mus musculus with 9 samples.

Results

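The 5S ribosomal RNA gene copies were chosen by their symbol in the platform annotation: every gene whose symbol begins with n-R5s, and Rn5s, the mouse 5S rRNA gene. There were 63 such genes among the 24259 genes measured. The study measured RNA of whole mouse retinas, taken at postnatal day 8, with Affymetrix whole-transcript arrays, 3 arrays in each of 3 groups. The groups were the Rb/p107 double knockout (Rb/p107 DKO, called DKO below), the Rb knockout (Rb KO) and wild type (WT), all on the C57Bl/6x129SvJ background. The arrays of a group are biological replicates per the series design. The labels do not say which cells had lost the genes or when. They name neither a promoter nor a Cre line, nor do they say whether animals were pooled. Values are log2 intensities, so that a difference of 1 is a doubling.

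5S rRNA is a short RNA of the large ribosomal subunit. It is made by RNA polymerase III from a promoter inside the gene, with the help of TFIIIA, TFIIIC and TFIIIB. The other rRNAs of the large and small subunits are cut from a precursor made by RNA polymerase I. Before it joins the ribosome 5S rRNA forms a particle with the ribosomal proteins Rpl5 and Rpl11, which can bind Mdm2, the ubiquitin ligase that targets p53. The Rb family of proteins is known to hold back RNA polymerase III in cultured cells, with TFIIIB as a target.

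All 63 genes were found in the RefSeq gene table, which annotated 49 as rRNA genes and 14 as pseudogenes, with lengths of 117 to 121 bases. On chromosome 8 this table has a run of 50 neighbouring 5S entries, of which 48 are rRNA genes. The run held 42 of the genes measured here, 41 annotated as rRNA genes and 1, n-R5s127, as a pseudogene. The other 21 genes lay outside the run on 12 chromosomes, chromosome 8 included and 5 of them on X, with 8 annotated as rRNA genes and 13 as pseudogenes. Of the 76 RefSeq 5S entries, 7 lie on chromosomes 1, 2 and 3 and were not analysed here. The genes were named only from annotation, and their probe sequences were not used here.

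Many copies were not measured apart from one another. The 63 genes gave 31 distinct readings, a reading being a set of 9 intensities that is the same to the last digit. By the probe set used for each gene, 27 genes had a reading of their own and 36 fell into 4 shared ones, of 25, 5, 3 and 3 genes. Over all genes on the array 1.5% shared all 9 values with another gene. The largest shared reading is that of Rn5s and 24 n-R5s genes, from n-R5s100 to n-R5s149, all in the chromosome 8 run. The reading of 5 genes is that of n-R5s101, n-R5s114, n-R5s119, n-R5s129 and n-R5s131. Those of 3 genes are n-R5s112, n-R5s120 and n-R5s125, and n-R5s106, n-R5s118 and n-R5s130. A count of 5S genes that differ therefore counts some measurements many times, and counts of readings stand beside it below. Rn5s had a dimmer probe set besides the one used, with the reading of n-R5s107. The pair differed by at most 0.10 on any array, and the correlation between them over the 9 arrays was 0.999. The 24 genes that share the reading of Rn5s had the same 2 probe set readings, so this pair counts once. n-R5s107 stands apart from them only because the brightest probe set represented each gene. The last of the 26 5S genes with several probe sets, n-R5s136, had a pair of its own. Neither pair disagreed in direction.

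A level of background was set on each array from its 5222 negative control probe sets as their 95th percentile, which lay between 7.94 and 8.50. Of the 5S genes 43 lay above it on all 9 arrays, 4 on some arrays and 16 on none. In readings, this was 11, 4 and 16. Over all genes 24.1% lay above it on all 9 arrays and 61.9% on none. The 11 bright readings were 9 of the chromosome 8 run, n-R5s2 on the X chromosome and n-R5s151 on chromosome 7, all of them annotated as rRNA genes. Of the 14 genes annotated as pseudogenes, none lay above background on all 9 arrays. Intensities of different probe sets do not compare amounts of RNA, so these counts say only which readings stand clear of background.

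**Figure D1:**
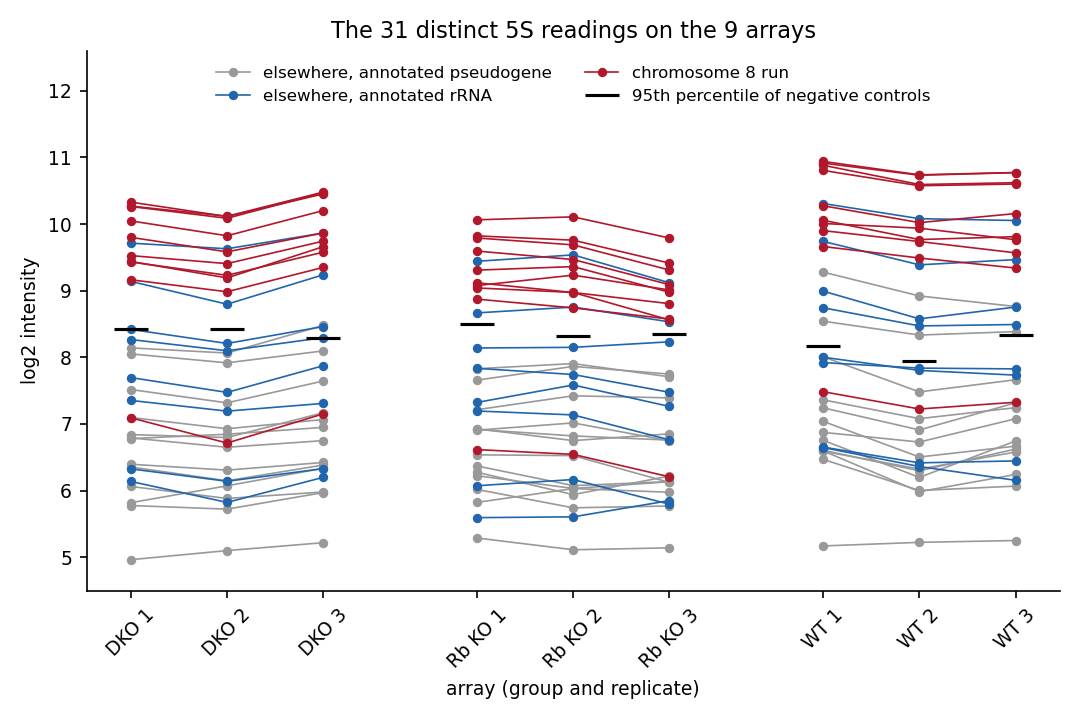
Log2 intensity of the 31 distinct 5S readings (vertical axis) on the 9 arrays (horizontal axis), with a line joining the arrays of a group for each reading. Red marks readings of the chromosome 8 run, blue rRNA genes elsewhere, grey pseudogenes elsewhere, and black dashes the 95th percentile of each array's negative controls; Rn5s lies at 10.26, 10.09 and 10.47 on the DKO arrays, 9.82, 9.76 and 9.41 on the Rb KO arrays and 10.91, 10.73 and 10.77 on the WT arrays.

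The rule that chose the genes uses symbols only, but the family was picked with results of these comparisons known. The group differences below are therefore descriptions of its members and support nothing about the family as such. Calls use limma fitted to all 24259 genes, with Benjamini-Hochberg adjusted p under 0.05. The 3 comparisons share arrays, so that each array enters 2 of them.

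In Rb KO retinas the 5S readings were lower than in WT retinas. Rn5s, with the 24 genes of the same reading, measured 9.82, 9.76 and 9.41 on the Rb KO arrays, against 10.91, 10.73 and 10.77 on the WT arrays. The groups did not overlap, and the gap between them was wider than the spread within either group. Rn5s was 2.21-fold lower, a log2 difference of -1.14 (SE 0.12, limma adjusted p = 9.8e-05). A log2 fall at least as deep was measured for 234 of the 24259 genes, 0.965%.

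Of the 63 genes 55 were called lower in Rb KO retinas (87.3%) and 0 higher, against 14.3% of all genes called lower, 10.2% called higher and 24.4% called in either direction. In readings, 23 of 31 were called (74.2%). The same number of genes, 55, had no overlap between Rb KO and WT arrays with Rb KO lower, against 21.5% of all genes. The median log2 difference over the 63 genes was -0.94, over the 31 readings -0.70 and over all genes -0.05. Of the calls, 8 were of genes above background in neither group, all with readings of their own.

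The size of the measured fall differed among the bright readings. Over the 11 readings above background on all arrays, the log2 difference ran between -1.28 for n-R5s136 and -0.71 for n-R5s106, all 11 called. Their SD was 0.20, and the median SE of a single reading was 0.12. The readings share their arrays, so this SE does not measure the noise of a difference between readings. Unlike falls of the copies and unlike probe sets cannot be told apart here. n-R5s136, an rRNA gene of the chromosome 8 run, measured 9.59, 9.47 and 9.09 on the Rb KO arrays, against 10.80, 10.57 and 10.60 on the WT arrays. Its groups did not overlap, and the fall was 2.42-fold (log2 -1.28, SE 0.14, limma adjusted p = 9.4e-05). n-R5s107 had a log2 difference of -1.22 (SE 0.13, limma adjusted p = 9.5e-05), and n-R5s112, with the 2 genes of its reading, one of -1.02 (SE 0.15, limma adjusted p = 6.3e-04).

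The smallest fall among the bright readings was that of n-R5s106, which it shares with n-R5s118 and n-R5s130. It measured 10.06, 10.11 and 9.79 on the Rb KO arrays, against 10.88, 10.59 and 10.62 on the WT arrays. The groups did not overlap, with a log2 difference of -0.71 (SE 0.12, limma adjusted p = 0.0016). Rn5s minus n-R5s106 was -0.38 to -0.24 on the Rb KO arrays and 0.03 to 0.15 on the WT arrays. These ranges did not overlap, and the means differed by -0.43. The pair was picked after its values were seen, so this difference is given with no test.

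Copies outside the run were lower too. n-R5s2 on the X chromosome measured 9.44, 9.54 and 9.12 on the Rb KO arrays, against 10.31, 10.08 and 10.05 on the WT arrays. Its log2 difference was -0.78 (SE 0.12, limma adjusted p = 8.2e-04), with no overlap. n-R5s71, annotated as a pseudogene on chromosome 11, measured 7.83, 7.91 and 7.71 on the Rb KO arrays, against 9.28, 8.92 and 8.76 on the WT arrays. No Rb KO array lay above background, so that its fall is given as at least 0.60 on the log2 scale, measured between the WT mean and the background level of the Rb KO arrays (limma adjusted p = 1.9e-04 for the measured values). n-R5s33, an rRNA gene on chromosome 16, was likewise above background on the 3 WT arrays and on no Rb KO array, with a bound of at least 0.18 (limma adjusted p = 2.5e-04).

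By place, all 42 genes of the run were called lower in Rb KO retinas, in 10 of 10 readings, with a median log2 difference of -1.14. Elsewhere 13 of 21 were called, with a median of -0.44. Of those elsewhere the 8 rRNA genes were all called and 5 of the 13 pseudogenes. Brightness moves with this division: 41 of 42 genes of the run and 2 of 21 elsewhere lay above background on all arrays. Over the 31 readings, the correlation between mean intensity and log2 difference was -0.78. The readings come from the same arrays, and the part of brightness in the division was not tested.

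The 3 dimmest readings are pseudogenes. n-R5s12, an X-linked pseudogene and the dimmest reading, measured 4.96, 5.10 and 5.22 on the DKO arrays, 5.29, 5.11 and 5.14 on the Rb KO arrays and 5.17, 5.22 and 5.25 on the WT arrays. The 3 groups overlapped, and it was called in no comparison. n-R5s60 and n-R5s86, the next dimmest, averaged 5.97 and 5.82 on the DKO arrays, 5.84 and 5.94 on the Rb KO arrays, and 6.18 and 6.27 on the WT arrays. All of these values lie under background, where no fold is given. n-R5s86 was nevertheless called lower in DKO against WT (limma adjusted p = 0.031), a call lost without WT 1 (adjusted p = 0.097), WT 3 (adjusted p = 0.060), DKO 1 (adjusted p = 0.093) or DKO 2 (adjusted p = 0.099). In Rb KO against WT neither passed, though without WT 2 both did (adjusted p = 0.033 for n-R5s60 and 0.015 for n-R5s86).

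**Figure D2:**
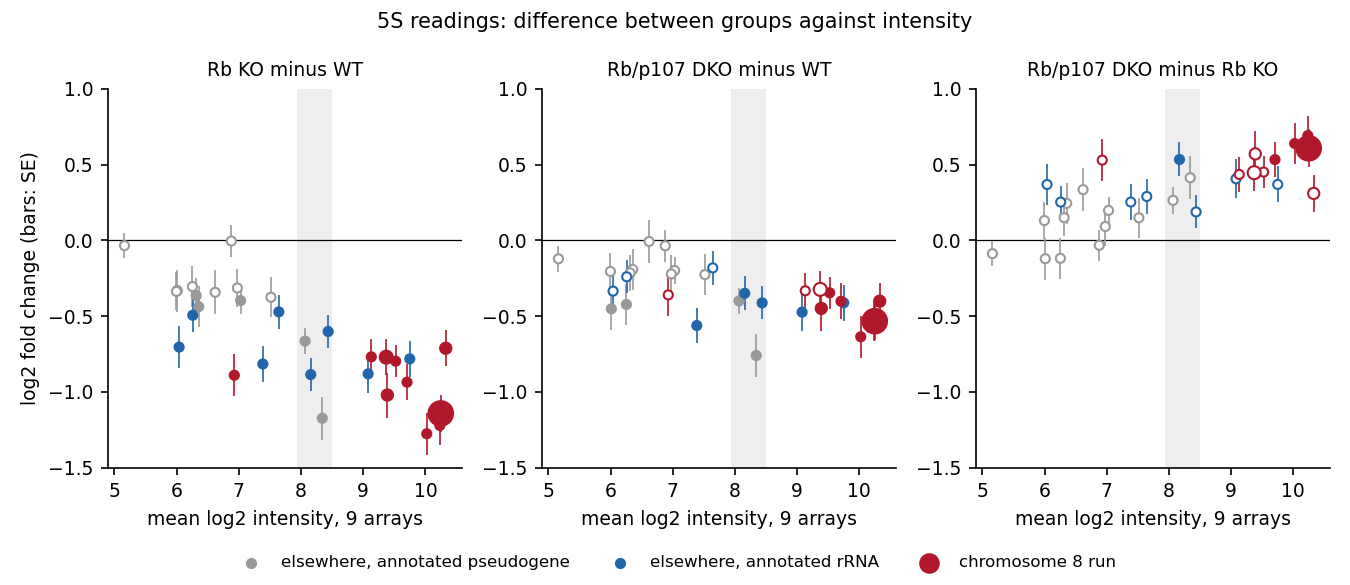
Log2 fold change with its standard error (vertical axis) against the mean log2 intensity over 9 arrays (horizontal axis) for the 31 readings in each comparison. Filled points are called, open points are not, larger points hold more genes, colours are as in the plot of readings by array, and the grey band spans the negative control percentiles of 7.94 to 8.50; the bright readings lie between -1.28 and -0.71 in Rb KO minus WT, between -0.64 and -0.32 in DKO minus WT and between 0.31 and 0.69 in DKO minus Rb KO.

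In DKO retinas the 5S readings were lower than in WT retinas as well. Rn5s measured 10.26, 10.09 and 10.47 on the DKO arrays, against 10.91, 10.73 and 10.77 on the WT arrays. The groups did not overlap. Rn5s was 1.45-fold lower (log2 -0.53, SE 0.12, limma adjusted p = 0.0083), and 6.9% of all genes had a log2 fall at least as deep.

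Of the 63 genes 44 were called lower in DKO retinas (69.8%) and 0 higher, against 17.1% of all genes called lower, 12.2% called higher and 29.3% called in either direction. In readings, 16 of 31 were called (51.6%). No overlap with DKO lower was seen for 45 genes, against 26.5% of all genes. The median log2 difference over the 63 genes was -0.45, and over all genes -0.06. By place 35 of 42 genes of the run were called and 9 of 21 elsewhere. With the separation of positive from negative controls as a covariate 3 of the 63 were called, 39 had an unadjusted limma p under 0.05, and Rn5s had a log2 difference of -0.51 (limma adjusted p = 0.067). With the same covariate 54 genes were called in Rb KO against WT.

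The pseudogene n-R5s71 had the largest measured difference in this comparison, although 1 of the 3 DKO arrays and all 3 WT arrays lay above background. It measured 8.14, 8.06 and 8.48 on the DKO arrays, against 9.28, 8.92 and 8.76 on the WT arrays. Its groups did not overlap, with a log2 difference of -0.76 as measured (SE 0.14, limma adjusted p = 0.0022). n-R5s136 fell by 0.64 on the log2 scale (SE 0.14, limma adjusted p = 0.0054) and n-R5s107 fell by 0.53 (SE 0.13, limma adjusted p = 0.012). n-R5s162, an rRNA gene on chromosome 6 that was under background on all 9 arrays, averaged 7.28 in DKO retinas and 7.85 in WT retinas (limma adjusted p = 0.0046). The bright n-R5s106 had a log2 difference of -0.40 (SE 0.12, limma adjusted p = 0.028), whose call was lost without WT 1 (-0.31, adjusted p = 0.10), DKO 1 (-0.42, adjusted p = 0.064) or DKO 2 (-0.31, adjusted p = 0.11). The calls of Rn5s, n-R5s71, n-R5s136, n-R5s107 and n-R5s162 in this comparison were kept with any 1 array left out.

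Set against Rb KO retinas, DKO retinas had higher 5S readings. The Rn5s values of 10.26, 10.09 and 10.47 in DKO retinas all exceeded those of 9.82, 9.76 and 9.41 in Rb KO retinas. Rn5s was 1.53-fold higher (log2 0.61, SE 0.12, limma adjusted p = 0.029), and 0.919% of all genes had a rise at least as large. Of the 63 genes 29 were called higher (46%) and 0 lower, against 1.34% of all genes called higher, 1.21% called lower and 2.54% called in either direction. Those 29 genes are 5 of 31 readings (16.1%), since 25 of them share the reading of Rn5s. The other 4 are n-R5s107, n-R5s136, n-R5s115 and n-R5s33. The reading of n-R5s107 is also that of the dimmer probe sets of those 25 genes. The median log2 difference was 0.53 over the 63 genes, 0.31 over the readings and -0.00 over all genes. No overlap with DKO higher was seen for 50 genes, in 18 readings, against 11.3% of all genes.

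The 5 readings were called by a narrow margin. n-R5s107 had the largest rise, 0.69 on the log2 scale (SE 0.13, limma adjusted p = 0.022), n-R5s136 one of 0.64 (SE 0.14, limma adjusted p = 0.036) and n-R5s115 one of 0.53 (SE 0.12, limma adjusted p = 0.042). n-R5s33 averaged 8.22 in DKO retinas and 7.68 in Rb KO retinas (limma adjusted p = 0.031), and since 1 of the 3 DKO arrays and no Rb KO array lay above background, no fold is given. n-R5s106, bright as it is, had a difference of 0.31 (SE 0.12, limma adjusted p = 0.27). Without Rb KO 1 the count of genes called in DKO against Rb KO was 3, without Rb KO 2 it was 2, and without Rb KO 3, DKO 1 or DKO 3 it was 0, with 45, 44 and 42 genes at an unadjusted limma p under 0.05. The Rn5s difference was then 0.69, 0.66, 0.48, 0.61 and 0.51, in the order of those arrays, with limma adjusted p of 0.050 to 0.13. With DKO 2 or any WT array left out between 27 and 31 genes were called.

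In 27 of the 31 readings the DKO mean lay between the Rb KO and the WT mean, and this held for the 11 bright ones. On the median over the 63 genes of each array, DKO retinas had 9.72 ± 0.14, Rb KO retinas 9.23 ± 0.19 and WT retinas 10.12 ± 0.14 (SD, n = 3 each). With each reading entered once the medians were 7.68 ± 0.20, 7.43 ± 0.14 and 7.89 ± 0.10 for DKO, Rb KO and WT retinas (SD, n = 3 each). The family difference of Rb KO from WT was -0.89 over genes and -0.46 over readings, where the 25 genes with the reading of Rn5s enter once. The medians over readings lay under background on each array, so -0.46 is a difference between background-level values. Over the 11 bright readings, each entered once, the median log2 difference was -0.88.

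Copies with separate readings were also correlated from array to array within the groups. With the group means taken away, each reading was correlated over the 9 arrays with the median of the others. The median over all 31 readings was 7.32 to 8.01 and lay under background on each array. These are thus correlations with a background-level value. The median of these 31 correlations was 0.67, against 0.06 for the 24196 other genes, of which 5% lay above 0.64. For the 5799 other genes above background on all 9 arrays it was 0.15. The closest were n-R5s88, a pseudogene on chromosome 9 (0.93), n-R5s109 of the chromosome 8 run (0.91) and n-R5s151 on chromosome 7 (0.89). The loosest were the dim pseudogenes n-R5s12 (-0.06), n-R5s93 (0.14) and n-R5s7 (0.22). Rn5s had 0.64. Values as high were measured outside the family, such as 0.89 for Gm23103 and 0.86 for Gm25326, both annotated as small nuclear RNA genes and picked after their values were seen. All bright readings lay between 0.57 and 0.91. The points share the 9 arrays and the brightness division above, and these correlations are given as descriptions.

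**Figure D3:**
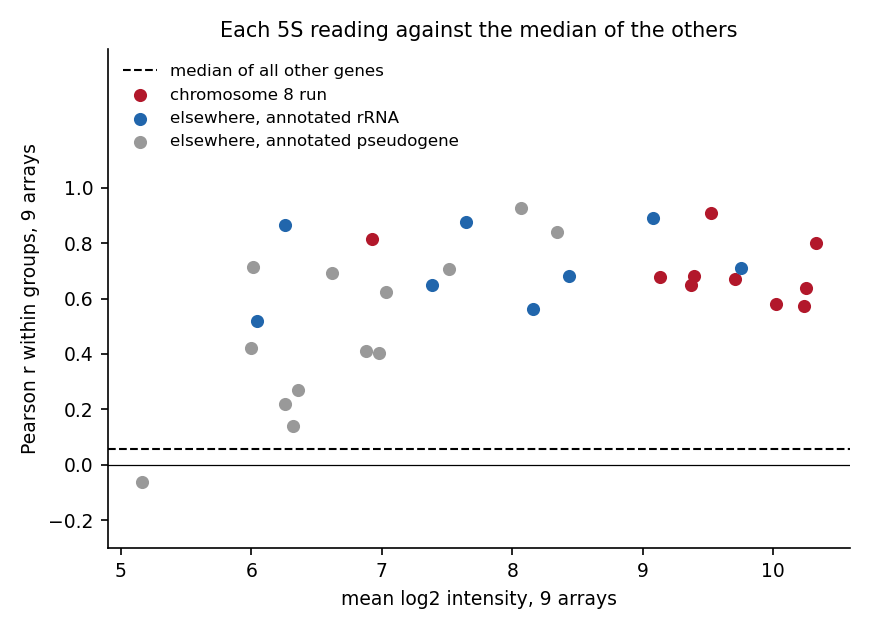
Pearson correlation of each 5S reading with the median of the other readings over the 9 arrays after the group means were taken away (vertical axis), against its mean log2 intensity (horizontal axis). The median over all readings lay under background on each array. The dashed line is the median of all other genes at 0.06; the 11 bright readings lie between 0.57 and 0.91, and the lowest point is n-R5s12 at -0.06.

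With the group differences kept in, the correlation of a reading with the median of the other readings exceeded 0.9 for 20 of 31 readings (64.5%). Against the median of the readings, 64 of the other genes exceeded it (0.265%). As above, the median over the readings lay under background on each array. Rn5s had 0.92 on this measure. The correlations that follow are on another measure, the median over the 63 genes of each array. The reading of Rn5s enters it 25 times and is thus partly compared with itself. The genes outside the family by symbol that followed this median most closely over the 9 arrays were 6 with Gm symbols. They were Gm22109, Gm22291, Gm23284, Gm25018, Gm25212 and Gm26391. Their reading is that of Rn5s, RefSeq annotates them as rRNA genes, and their correlation was 0.99. They are counted among the other genes above, as is Gm24312, which has the reading of n-R5s106. After them came Gm23647, annotated as a pseudogene (0.99), and Gm25326, annotated as a small nuclear RNA gene (0.99). Gm23647 measured 9.45, 9.44 and 9.78 in DKO retinas, 9.07, 8.96 and 8.67 in Rb KO retinas and 10.16, 9.90 and 9.85 in WT retinas, and no group overlapped another. Rny1, a Y RNA, had 0.97.

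Other short RNAs made by RNA polymerase III were partly lower too. Of 10 measured genes in 9 readings, 7 were called lower in Rb KO retinas and 0 higher, with a median log2 difference of -0.25. Of these 7 calls, 2 are of 1 reading, that of Rn7s1 and Rn7s2. Over all genes 14.3% were called lower and 10.2% higher. Rny1, the Y RNA named above, measured 10.49, 10.47 and 10.37 on the Rb KO arrays, against 11.56, 11.13 and 11.36 on the WT arrays, a log2 difference of -0.91 (SE 0.12, limma adjusted p = 2.8e-04). Rny3, another Y RNA, had a difference of -0.78 (SE 0.09, limma adjusted p = 1.7e-04), Rpph1, the RNA of RNase P, one of -0.66 (limma adjusted p = 0.0014), and Bc1, a neuronal RNA, one of -0.42 (limma adjusted p = 0.0056). Rn7s1 and Rn7s2, the signal recognition particle RNA genes, share 1 reading with a difference of -0.25 (limma adjusted p = 0.022), and Rnu6, a U6 RNA, had -0.22 (limma adjusted p = 0.036). Rn7sk, the RNA that holds the elongation factor P-TEFb inactive, had -0.05 (SE 0.07, limma adjusted p = 0.68). The Rn7s1 call was lost without WT 1 (-0.21, adjusted p = 0.084) or Rb KO 3 (-0.23, adjusted p = 0.075). That of Rnu6 was lost with any array left out but WT 3 and Rb KO 1, with values of -0.24 to -0.18 and adjusted p of 0.052 to 0.12. The genes of this list beyond Rny1 and Rny3 were named after their values were seen.

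In DKO against WT retinas 4 of these 10 were called lower and 0 higher: Rny3 (log2 -0.53, limma adjusted p = 0.0013), Rny1 (-0.41, adjusted p = 0.021), Rpph1 (-0.39, adjusted p = 0.020) and Bc1 (-0.26, adjusted p = 0.049). Over all genes 17.1% were called lower and 12.2% higher in this comparison. In DKO against Rb KO retinas 0 were called by limma, where 1.34% of all genes were called higher. Of the 10, 6 were higher at an unadjusted limma p under 0.05, and Rny1 had the lowest adjusted p (log2 0.50, adjusted p = 0.052). It passed without WT 1 (adjusted p = 0.038), WT 2 (adjusted p = 0.023) or DKO 2 (adjusted p = 0.034) and in 9 of 17 alternatives in all, and Rn7s1 (0.28, adjusted p = 0.068) passed in 4 of 17, among them without WT 2 (adjusted p = 0.047). The Rny3 call against WT was kept with any 1 array left out. That of Rny1 was lost without WT 1 (-0.31, adjusted p = 0.080), WT 3 (-0.41, adjusted p = 0.052) or DKO 2 (-0.32, adjusted p = 0.085), and that of Rpph1 without WT 1 (-0.32, adjusted p = 0.076), DKO 1 (-0.36, adjusted p = 0.075) or DKO 2 (-0.38, adjusted p = 0.057). With 1 array left out, Bc1 passed only without WT 2 or Rb KO 1. With another array left out it had differences of -0.29 to -0.20 with adjusted p of 0.058 to 0.14. Bc1 passed in 4 of 17 alternatives in all.

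The 28S rRNA gene Rn28s1, a product of RNA polymerase I, measured 13.83, 13.79 and 13.77 on the DKO arrays, 13.73, 13.75 and 13.75 on the Rb KO arrays and 13.81, 13.77 and 13.77 on the WT arrays. Its log2 differences were 0.01 in DKO over WT, 0.05 in DKO over Rb KO and -0.04 in Rb KO over WT (SE 0.06, limma adjusted p = 0.74), and none passed. It was the only 1 measured of 5 listed rRNAs made by RNA polymerase I. It was also brighter than any 5S reading, which reached at most 10.94 on any array. Whether its probe set can still register a difference at this level was not tested.

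**Figure D4:**
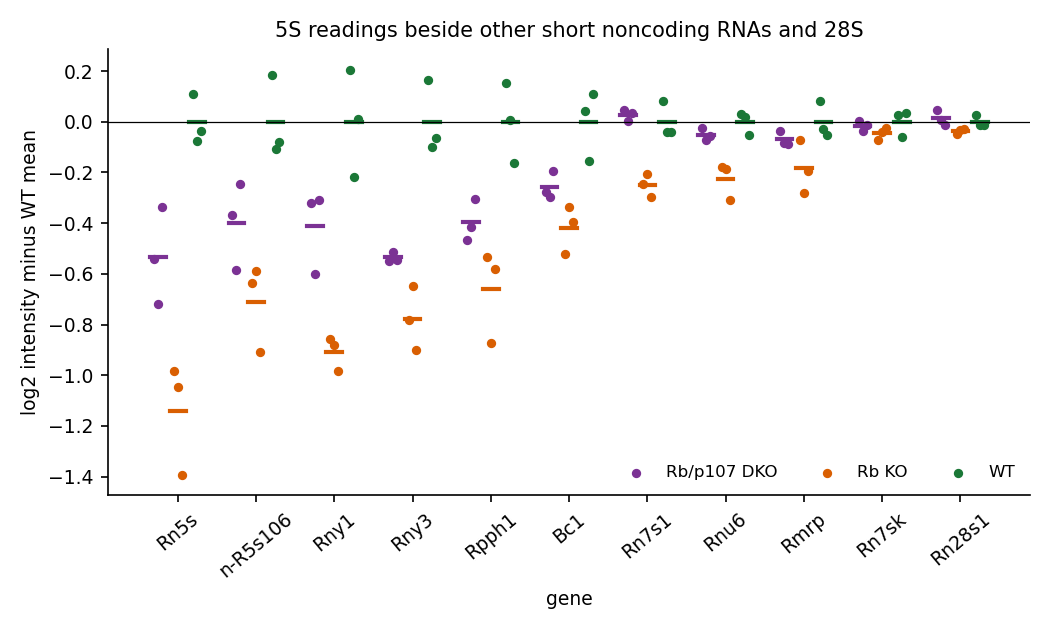
Log2 intensity minus the WT mean of the same gene (vertical axis) on each array for 2 5S readings, 8 other short RNAs and the 28S rRNA gene (horizontal axis). Points are arrays and bars are means of 3 arrays, DKO in purple, Rb KO in orange and WT in green; Rn5s lies at -0.53 in DKO and -1.14 in Rb KO, and Rn28s1 at 0.01 and -0.04.

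Among genes of the machinery that makes 5S rRNA, no RNA polymerase III subunit passed the test and some transcription factors did. Of 12 measured RNA polymerase III subunits, 0 were called by limma in any comparison, with 4, 4 and 2 at an unadjusted p under 0.05 for Rb KO over WT, DKO over WT and DKO over Rb KO. Their median log2 difference was -0.02 in Rb KO and 0.01 in DKO against WT. Crcp, a subunit, had the lowest p in Rb KO (log2 -0.29, limma adjusted p = 0.065, past the threshold without WT 3, adjusted p = 0.047, or Rb KO 3, adjusted p = 0.046). Polr1c, which RNA polymerases I and III share, had it in DKO against WT (0.25, limma adjusted p = 0.052, and 0.31, adjusted p = 0.016, without WT 2). Of 8 measured genes of RNA polymerase I and its factors 0 were called by limma in any comparison, and 1, Ubtf, had an unadjusted p under 0.05 in Rb KO against WT (0.22, limma adjusted p = 0.059, and 0.26, adjusted p = 0.036, without WT 2). None did so in the other comparisons.

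Among 8 measured genes for TFIIIA, TFIIIC, TFIIIB and the repressor Maf1, 3 were called higher and 0 lower in Rb KO retinas. Over all genes 10.2% were called higher and 14.3% lower. Gtf3a, which encodes TFIIIA, the factor that binds the 5S gene and 5S rRNA, measured 9.43, 9.29 and 9.34 on the DKO arrays, 9.42, 9.39 and 9.34 on the Rb KO arrays and 8.96, 9.14 and 8.85 on the WT arrays. Both mutant groups lay above WT without overlap. The log2 difference was 0.40 in Rb KO (SE 0.09, limma adjusted p = 0.0059) and 0.37 in DKO (SE 0.09, limma adjusted p = 0.0076) against WT, and -0.03 between DKO and Rb KO (SE 0.09, limma adjusted p = 0.96). The other genes called in Rb KO were Gtf3c6, a TFIIIC subunit (0.28, adjusted p = 0.017, lost without Rb KO 2 at 0.23, adjusted p = 0.072), and Bdp1, a TFIIIB subunit (0.27, adjusted p = 0.046), named after its value was seen. The Bdp1 call was lost with any array left out but WT 3, at 0.18 to 0.30 with adjusted p of 0.050 to 0.16.

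In DKO against WT 3 genes of this list were called higher and 2 lower, where 12.2% of all genes were called higher and 17.1% lower. Besides Gtf3a, the higher ones were Tbp (0.28, adjusted p = 0.028), the TATA-binding protein, and Gtf3c6 (0.22, adjusted p = 0.038). The lower ones were Brf1, a TFIIIB subunit (-0.34, SE 0.08, limma adjusted p = 0.0070), and Gtf3c1, the largest TFIIIC subunit (-0.26, adjusted p = 0.032). Of these, Gtf3a and Brf1 kept their calls with any 1 array left out. Those of Tbp (0.25 to 0.28, adjusted p of 0.076 to 0.093 without WT 1 or any DKO array), Gtf3c6 (0.20 to 0.25, adjusted p of 0.054 to 0.12 without WT 1, WT 3, Rb KO 3 or any DKO array) and Gtf3c1 (-0.27 to -0.20, adjusted p of 0.057 to 0.095 without WT 2, WT 3 or any DKO array) did not. In DKO against Rb KO 0 of the 8 were called by limma, with 2 lower at an unadjusted p under 0.05, and Brf1 had the lowest adjusted p (-0.25, adjusted p = 0.14).

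Of 4 measured partners of free 5S rRNA 1 was called. Mdm2 measured 9.95, 9.93 and 9.99 on the DKO arrays, 9.76, 9.91 and 10.01 on the Rb KO arrays and 8.94, 9.24 and 9.11 on the WT arrays. It was higher than WT in DKO (log2 0.86, SE 0.09, limma adjusted p = 7.3e-05) and in Rb KO retinas (0.80, SE 0.09, limma adjusted p = 1.6e-04), and did not pass between DKO and Rb KO (0.06, adjusted p = 0.90). Rpl11 lay under background on all 9 arrays and was not called. Of 5 measured genes of the SNAPc complex and other factors of U6-type genes, Snapc5 was called lower in DKO (-0.45, adjusted p = 0.0026) and in Rb KO against WT (-0.30, adjusted p = 0.026). The call in Rb KO was lost without WT 1, WT 2, Rb KO 1 or Rb KO 2 (-0.32 to -0.23, adjusted p of 0.051 to 0.10).

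Properties of the arrays and of the tissue are set here beside the 5S values. The separation of positive from negative controls (area under the curve) was 0.927 to 0.936 on the DKO arrays, 0.928 to 0.935 on the Rb KO arrays and 0.932 to 0.954 on the WT arrays. The 23 background probe sets are sorted by the GC content of their probes, in bins 3 to 25. In bins 19 to 25 they averaged 7.37 ± 0.11 on the DKO arrays, 7.40 ± 0.05 on the Rb KO arrays and 7.60 ± 0.28 on the WT arrays (SD, n = 3 each), with 7.77, 7.74 and 7.28 on WT 1, 2 and 3. WT 3, at 0.932 in the first property, lay within the range of the DKO arrays in both, and Rn5s measured 10.77 on it. That is 1 array, and the part of either property in the 5S values was not tested. In these bins the differences from WT were -0.39 to -0.16 for DKO and -0.50 to -0.12 for Rb KO, whereas in bins 3 to 18 the differences from WT were between -0.13 and 0.11. With this high-GC background as a covariate, an alternative added after the data were seen, 4 of the 63 genes were called in DKO against WT, 34 between DKO and Rb KO, and 52 in Rb KO against WT. Rn5s then had log2 differences of -0.46 (limma adjusted p = 0.059), 0.62 (adjusted p = 0.043) and -1.08 (adjusted p = 0.0014) in the order of these comparisons.

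**Figure D5:**
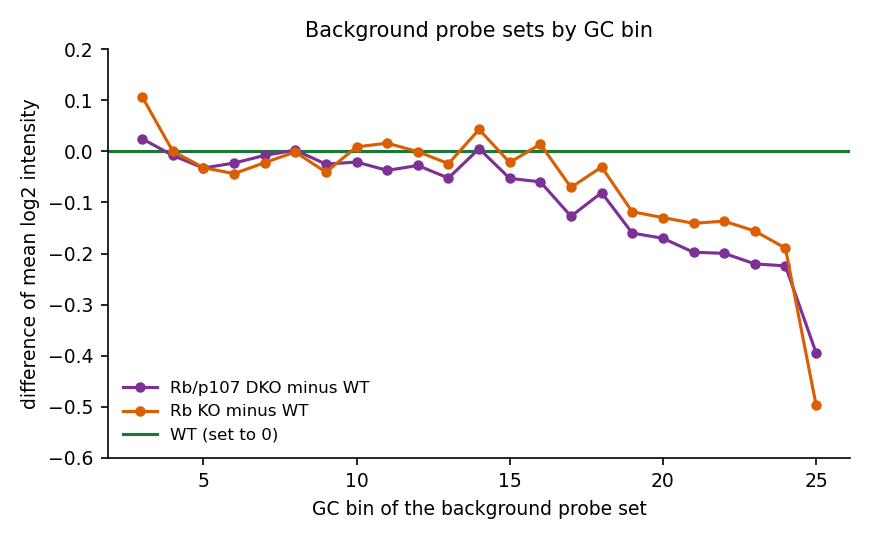
Difference of the mean log2 intensity of each background probe set (vertical axis) by the GC bin of its probes (horizontal axis), for DKO minus WT in purple and Rb KO minus WT in orange. The green line is WT set to 0, and from bin 19 upwards both mutant groups lie below it, at -0.50 to -0.12.

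Of the measured rod markers 4 of 5 lay above background on all 9 arrays, and of the bipolar markers 2 of 4. Of the 6 lens, 6 pigment epithelium and 6 microglia markers 0 did so, and 2, 2 and 3 lay above it on no array. It held for 2 of 4 ganglion cell, 1 of 5 endothelial, 2 of 3 Muller glia and 2 of 2 amacrine markers. The mean of 5 measured rod markers was 10.12 to 10.90 on the DKO arrays, 10.37 to 11.12 on the Rb KO arrays and 11.85 to 11.95 on the WT arrays, and all 5 were called lower in both mutant groups. The 4 measured bipolar markers averaged 8.60 to 9.47, 8.63 to 9.53 and 10.33 to 10.55 in DKO, Rb KO and WT retinas, all 4 called lower in both mutants. The 6 microglia markers averaged 8.01 to 8.33, 7.73 to 8.26 and 7.38 to 7.48, with 3 called higher in DKO and 4 in Rb KO against WT. The 6 lens markers averaged 7.30 to 9.18, 6.73 to 7.06 and 6.58 to 6.95, with 3 called higher in DKO and 0 in Rb KO against WT. The 6 pigment epithelium markers averaged 6.47 to 6.70, 6.55 to 6.82 and 7.73 to 8.13, with all 6 called lower in both mutants. Of 4 ganglion cell markers 3 were called lower in DKO and 4 in Rb KO, of 5 endothelial markers 4 in DKO and 3 in Rb KO, and of 3 Muller glia markers 2 in each. Of 2 amacrine markers 1 was called higher in each mutant, and both measured erythrocyte markers were under background on all arrays. In whole retinas, fewer cells of a type and less RNA per cell cannot be told apart, and the part of these markers in the 5S values was not tested. Rb1, the gene named in the labels, measured 9.740, 10.001 and 9.848 on the DKO arrays, 9.846, 10.017 and 9.862 on the Rb KO arrays and 10.005, 10.186 and 10.465 on the WT arrays. The sources used here do not say whether its probe set lies in the deleted part, so it does not check the labels, and Rbl1, the gene of p107, was not analysed here.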

How the data were processed

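Total RNA of 9 mouse retina samples (3 groups of 3) with an integrity score above 8 was amplified and hybridised, per the labels' protocols. The values deposited by the authors are log2 intensities per probe set, made with RMA, as the submitters' processing notes list. Which software version and genome build lay behind them is not given in the sources used here. RMA sets all arrays to a common distribution, so values are relative to each array's other RNAs. Precision is limited by the number of arrays, 3 per group.

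Probe sets with 1 gene symbol were kept, a gene was represented by its brightest probe set over the 9 arrays, and no dim genes were removed, which left 24259 genes. Symbols were updated through gene IDs in the RefSeq table of assembly GRCm38.p6, which also gave gene types and neighbours. A group-means model over all 9 arrays was fitted with limma 3.58.1 in R 4.3.3 (eBayes without trend), with Benjamini-Hochberg adjustment over all genes and calls under 0.05. All p-values in the text without another name are limma adjusted p-values. The fit was tested on simulated data. Where the lower group had no array above the 95th percentile of the negative controls, a bound was used, and where neither group had one, no fold.

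The members, gene lists and alternatives were chosen with earlier results of these data known. Named genes are Rn5s, the 5 brightest and 3 dimmest readings, the 5 largest called differences without overlap in each comparison, the 3 highest and 3 lowest within-group correlations, up to 2 called genes in each direction of each list (or the one with the lowest p) and the 3 closest genes outside the family. Alternatives were other probe-set rules, renewed quantile normalization, a filter on dim genes, a trended and robust fit, only the groups compared, a replicate block, control separation as a covariate, each array left out and, added after seeing the data, high-GC background as a covariate and identical readings entered once.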

Additional observations from a re-analysis of the deposited data

How the results depend on the processing

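The family difference, the median over members per array, kept its direction with each array left out, the other probe-set rules, renewed normalization, dim genes left out and identical readings entered once, and was not computed with the covariates, the block or other fits. Rn5s was called in Rb KO against WT in 17 of 17 alternatives (log2 -1.22 to -1.02). Rn5s passed in 15 of 17 for DKO against WT and in 12 of 17 for DKO over Rb KO. With each array left out in turn, between 53 and 60 genes were called in Rb KO against WT, 30 to 49 for DKO over WT and 0 to 31 for DKO over Rb KO, and the family difference ranged over -0.96 to -0.78, -0.47 to -0.32 and 0.39 to 0.56. With identical readings entered once (chosen after seeing the data) the counts were 23, 16 and 5 of 31, and the differences -0.46, -0.21 and 0.25. These differences are between medians that lay under background on each array. Over all probe sets the difference was 0.68 for DKO over Rb KO and -1.21 for Rb KO over WT, and with dim genes left out it was -1.14 in Rb KO against WT; the first counts 26 genes more than once and the second leaves genes out. For DKO over WT 3 genes were called with control separation as a covariate and 4 with high-GC background as a covariate; the cause was not tested. Same-numbered arrays did not deviate together (correlations -0.16 to 0.15 over the 3 pairs of each comparison). The labels give them a common replicate number, and whether they share an origin cannot be told from these correlations. With the replicate block 57, 43 and 28 genes were called. The sign turned for 9 single differences, none of which passed the test either way. With each array left out in turn, Rb KO minus WT was -0.088 to 0.00017 for n-R5s12 (above 0 without Rb KO 2) and -0.10 to 0.023 for Gtf3c1 (above 0 without WT 2), and after renewed normalization 0.012 and 0.062. DKO minus WT was -0.047 to 0.0017 for Rn7sk (above 0 without WT 3) and -0.0024 to 0.028 for Rn28s1 (below 0 without DKO 1), and -0.0039 for Rn7s1 after renewed normalization. For Bdp1 DKO minus WT was -0.014 to 0.15 (below 0 without WT 1), -0.0052 with control separation and -0.023 with high-GC background as a covariate. DKO minus Rb KO was -0.25 to 0.011 for n-R5s7 (above 0 without DKO 1) and -0.0063 to 0.12 for Mdm2 (below 0 without Rb KO 1), and -0.021 for Rnu6 with probe sets averaged. The 16 readings above background on no array limit what can be said of most pseudogene copies.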

Other observations

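Other classes of short RNA did not all move with the 5S copies. Of 50 Snord and Snora genes, whose RNAs guide the modification of rRNA, 9 were called higher and 19 lower in DKO against WT retinas (median log2 difference -0.12). In Rb KO against WT retinas 5 of them were higher and 27 lower (-0.34), and between DKO and Rb KO 10 were higher and 1 lower in DKO (0.23). The 791 genes that RefSeq annotates as small nucleolar RNAs had 35 called higher and 217 lower in DKO against WT (-0.10), and 28 higher and 167 lower in Rb KO against WT (-0.13). Between DKO and Rb KO 15 of them were higher and 44 lower in DKO (0.01), so that the balance of calls differed from that of the 50. Of 14 genes in 11 readings whose symbol begins with Rnu, 5 were higher and 1 lower in DKO against WT (0.31). In Rb KO against WT 1 of them was higher and 5 lower (-0.22). Between DKO and Rb KO 5 were higher and 0 lower in DKO (0.55). The 719 genes that RefSeq annotates as small nuclear RNAs had 30 called higher and 33 lower in DKO against WT (median -0.01), and in Rb KO against WT 13 were higher, 555 did not pass and the rest were lower (-0.15). Between DKO and Rb KO 33 were higher and 2 lower in DKO (0.17). Of these genes 523 lay above background on no array. Of 447 Mir genes, the microRNA host transcripts and hairpins, 62 were higher and 17 lower in DKO against WT (0.04), and 37 were higher and 10 lower in Rb KO against WT (0.03), with 396 above background on no array. The lists were chosen with results of these data known, and calls use limma over all genes as in the report, where 29.3% of all genes were called in DKO and 24.4% in Rb KO against WT, and 2.54% between DKO and Rb KO.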
